A study of Rattus norvegicus with 12 samples.

Results

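The interleukin-1 (IL-1) family signals through a small set of secreted cytokines and paired receptors, and 9 of its genes were followed here in rat lung: the agonists Il1a and Il1b, the receptor antagonist Il1rn, the signalling receptor Il1r1, the decoy receptor Il1r2, the shared accessory receptor Il1rap, the cytokines Il18 and Il33, and the IL-33 receptor Il1rl1. They were chosen by name from a count table of 30045 gene symbols. All 9 were present, and all 9 were among the 15019 genes that passed the filter on low counts. RNA was sequenced from a piece of lung of each of 12 male Fischer 344 (F344/DuCrl) rats bought at 3 months of age. The control group of 6 breathed air, and the other 6 breathed crystalline nanocellulose (CNC), rod-shaped particles made from plant cellulose, at 20 mg/m3. Both groups sat in whole-body chambers, and CNC was given 6 hours a day on 5 days a week for 14 exposure days, with lungs taken 1 day after the last. The labels name no transgene or deletion in either group.

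As background, IL-1 alpha and IL-1 beta bind the type 1 receptor, which then recruits the accessory protein and signals through Myd88 to NF-kappa B. The receptor antagonist occupies the same receptor without recruiting the accessory protein. The type 2 receptor captures IL-1 without signalling because it lacks the intracellular signalling domain. IL-18 and IL-33 use related receptors, IL-18 promoting interferon gamma production and IL-33 acting as an alarmin, stored in nuclei of barrier cells, that drives type 2 responses. In lung, macrophages and neutrophils are known sources of IL-1, and neutrophils and macrophages carry the decoy receptor.

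After CNC, 6 of the 9 genes rose and 1 fell (adjusted p under 0.05 in edgeR's quasi-likelihood fit, Benjamini-Hochberg adjusted over all genes tested). Il1r2 rose 3.85-fold, Il1rn 1.58-fold, Il1a 1.51-fold, Il18 1.44-fold, Il1b 1.37-fold and Il1rl1 1.27-fold. Il33 fell 1.23-fold. The differences of Il1r1 and Il1rap did not pass the test. Over all genes tested 24.6% changed, 13.2% being higher and 11.4% lower in CNC. The groups did not overlap for 5 of the 9 genes, 4 with CNC above air and 1 below, where 11.5% of all genes tested had groups that did not overlap (6.82% above and 4.7% below). The median log2 fold change of the 9 genes was 0.46, beside -0.0026 over all genes tested.

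Levels are given in TMM-scaled CPM, counts relative to the library total, in which the 2 groups can be compared gene by gene. They are not divided by transcript length, so levels of different genes were not ranked against each other. Library totals ran from 8693259 to 16603697 counts and overlapped between the groups (exact permutation test, 2-sided, p = 0.745). Lung markers were high in both groups, with the surfactant gene Sftpc between 9061 and 14543 CPM over the 12 rats and the endothelial cadherin Cdh5 between 559.6 and 843.7 CPM. Heart muscle transcripts differed between lung pieces within the air group, the summed markers running from 14.3 to 439 CPM in air and from 14.5 to 129 CPM in CNC, with air replicates 4 and 5 highest. Without those 2 libraries, 6 of the 9 genes were still higher and 1 lower. In whole lung tissue, more cells of a type and more RNA per cell cannot be told apart.

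**Figure D1:**
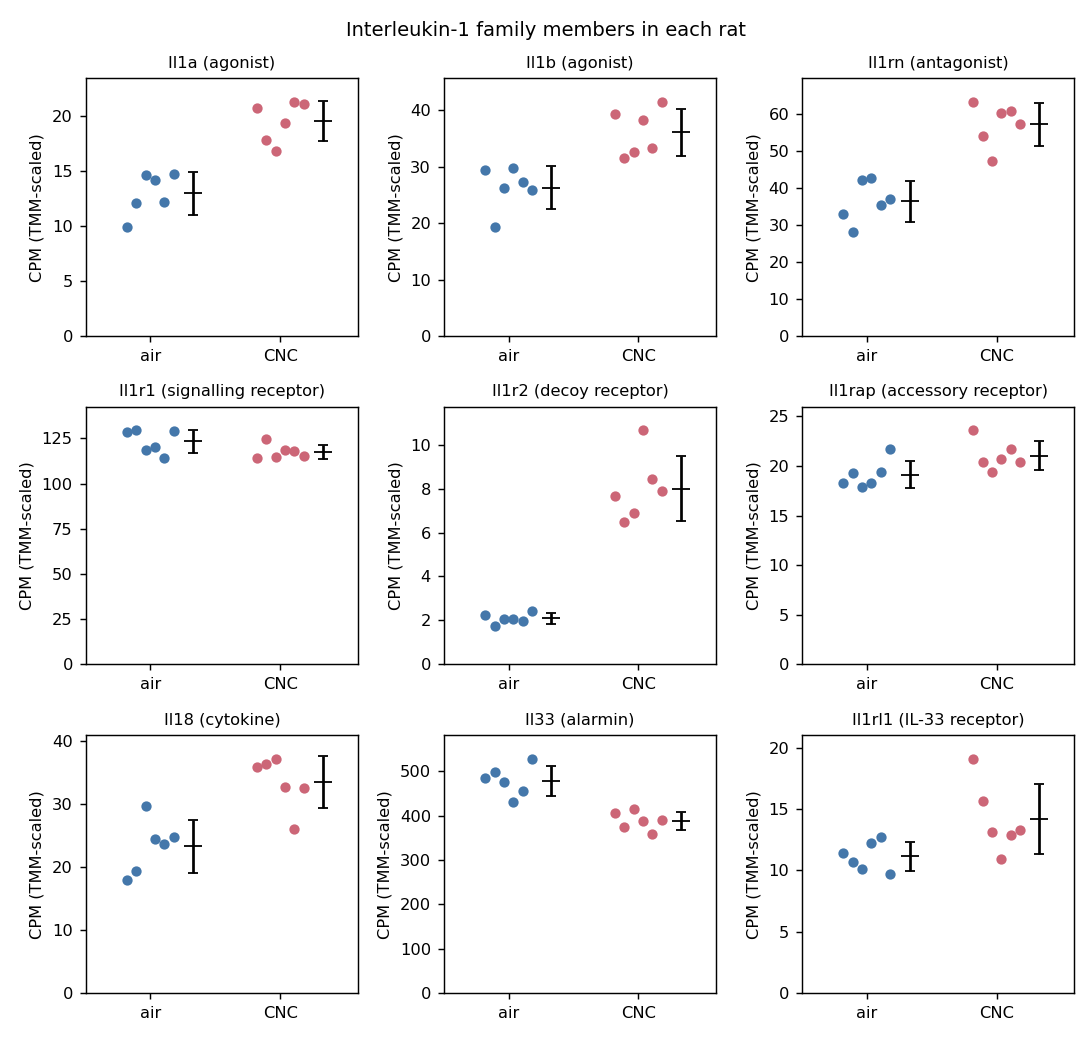
Level of each of the 9 genes in every rat (CPM, TMM-scaled, vertical axis from 0; points are rats in replicate order, the bar beside them the mean and SD of 6 rats). The CNC points of Il1a, Il1b, Il1rn and Il1r2 lie above every air point and those of Il33 below every air point, while the groups of Il1r1, Il1rap, Il18 and Il1rl1 overlap.

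The agonists and the antagonist all rose, by 1.37- to 1.58-fold. Il1a, the IL-1 that is already active as a precursor and is released by damaged cells, ran from 9.87 to 14.7 CPM in air (median 13.1) and from 16.8 to 21.3 CPM in CNC (median 20.0). Each CNC rat was above the highest air rat. The log2 fold change of Il1a was 0.60 ± 0.10 (SE; adjusted p = 0.000331 by edgeR), with 955 counts summed over the air libraries and 1475 over the CNC libraries. Il1b, which needs cleavage by caspase-1 or neutrophil proteases before it can signal, ran from 19.2 to 29.7 CPM in air (median 26.8) and from 31.5 to 41.5 CPM in CNC (median 35.8). Here too the groups did not overlap, although the highest air rat and the lowest CNC rat lay within 2 CPM. The log2 fold change of Il1b was 0.46 ± 0.10 (SE; adjusted p = 0.00291 by edgeR).

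Il1rn, which encodes the receptor antagonist, ran from 28.1 to 42.8 CPM in air (median 36.1) and from 47.3 to 63.2 CPM in CNC (median 58.8), again with no overlap. Its log2 fold change was 0.66 ± 0.09 (SE; adjusted p = 0.000122 by edgeR). The secreted and the intracellular forms of the antagonist share one row of the table and were not separated. Clock genes, which set daily rhythms, also differed between the groups: 7 of 14 tested rose and 5 fell, and the mean of their standardised levels was higher in CNC (exact permutation test, p = 0.00433). With that mean as a covariate the Il1b call ended (log2 fold change 0.23, adjusted p = 0.314 by edgeR), while the Il1a and Il1rn calls ended only with the version of the mean in which Arntl, Npas2, Clock and Cry1 were reversed in sign (log2 fold changes 0.55 and 0.48, adjusted p = 0.0612 and 0.0719). The clock difference and the exposure cannot be told apart in this design.

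The stretches of genome before the start sites of 1 agonist, Il1b, and of the antagonist, Il1rn, are shown here. Both genes rose, as did the agonist Il1a, whose stretch is not printed. Each is the 250 bases before the annotated start, 5′ to 3′ on the gene's own strand, from RefSeq's annotation of rat build GRCr8, which is not the build of the counts (Rnor6, named with the table). Capitals mark matches to the C/EBP motif searched, TTNNGNAA, on either strand. The Il1b window is chr3:137036582-137036831 on the minus strand and the Il1rn window is chr3:27520072-27520321 on the plus strand.
Il1b: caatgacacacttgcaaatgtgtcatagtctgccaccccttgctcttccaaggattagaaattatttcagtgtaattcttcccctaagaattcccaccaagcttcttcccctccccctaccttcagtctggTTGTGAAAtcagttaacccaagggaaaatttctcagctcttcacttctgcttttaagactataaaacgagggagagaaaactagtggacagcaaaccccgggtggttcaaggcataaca
Il1rn: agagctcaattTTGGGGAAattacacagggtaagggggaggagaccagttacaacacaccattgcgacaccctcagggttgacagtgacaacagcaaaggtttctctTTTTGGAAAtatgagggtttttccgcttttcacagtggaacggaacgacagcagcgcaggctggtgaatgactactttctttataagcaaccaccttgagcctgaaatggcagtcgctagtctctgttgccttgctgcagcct
The motif was present 1 time before Il1b, 119 to 112 bases before the start, and 3 times before Il1rn, where 2 of the matches overlap. Among 33469 RefSeq windows of the same length 37.2% held it, so its presence sets neither gene apart. The kappa B consensus (3.54% of windows), the AP-1 motif TGANTCA (6.34%) and the PU.1 motif GAGGAA (23.3%), searched on both strands, were not found in these 2 windows. The Il1a window did hold an AP-1 match, TGACTCA, 12 to 6 bases before the start. It also held a PU.1 match (41 to 36 bases before) inside a C/EBP match (43 to 36 bases before). A match, or its absence, describes these letters alone.

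The decoy receptor had the largest change among the 9 genes. Il1r2 ran from 1.74 to 2.44 CPM in air (median 2.07) and from 6.47 to 10.6 CPM in CNC (median 7.76). The 6 CNC rats stood far above the 6 air rats, CNC replicate 4 being the highest. In counts, Il1r2 had 21 to 31 per air library and 78 to 155 per CNC library, the fewest counts among the 9 genes. The log2 fold change of Il1r2 was 1.94 ± 0.14 (SE; adjusted p = 3.40e-07 by edgeR, 95% interval 1.65 to 2.24). The call held under each of 25 alternatives, the lowest log2 fold change being 1.66.

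Neutrophil markers moved in the same direction as Il1r2. Of 15 tested markers 7 rose and 1 fell (median log2 fold change 0.36), beside 13.2% higher and 11.4% lower over all genes tested. The sum of the markers was 240 to 346 CPM in air and 518 to 780 CPM in CNC. Cd177, a neutrophil surface protein, rose 7.12-fold, the alarmins S100a9 and S100a8 rose 3.78-fold and 1.8-fold, and the chemokine receptor Cxcr1 rose 1.74-fold. Most of the difference in the sum came from S100a9 (mean 73.2 CPM in air and 275 CPM in CNC) and Cd177 (mean 17.0 and 119 CPM), and the S100a8 call was lost with the clock gene covariate that has reversed signs (log2 fold change 0.57, adjusted p = 0.0827 by edgeR). The members of the list did not move alike: Csf3r, the G-CSF receptor of neutrophils, and Mmp8, neutrophil collagenase, named after their values were seen, had log2 fold changes of 0.18 and -0.09 and did not pass the test. The marker that fell was Ngp (-0.84, adjusted p = 0.0476 by edgeR), which passed the low-count filter only through the air libraries (158 counts, 89 over the CNC libraries). Fcnb (-0.30), Mmp9 (-0.20), Retnlg (-0.17), Lilrb3 (0.12) and Camp (0.36) did not pass the test either. No neutrophil marker was at 0 in all libraries, and Ltf, Fpr1 and Fpr2 were below the filter, with 2, 40 and 8 counts over the CNC libraries. What part neutrophil number has in the Il1r2 difference was not tested.

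Neither chain of the signalling receptor passed the test. Il1r1 ran from 114.0 to 129 CPM in air (median 124) and from 114.2 to 124 CPM in CNC (median 117). The groups overlapped, with air replicates 1, 2 and 6 above the highest CNC rat. Its log2 fold change was -0.07 ± 0.04 (SE; adjusted p = 0.203 by edgeR), with a 95% interval from -0.15 to 0.01. Il1rap, the accessory chain that both the IL-1 and the IL-33 receptor need, ran from 17.9 to 21.7 CPM in air (median 18.8) and from 19.4 to 23.6 CPM in CNC (median 20.5). Only 1 CNC rat was above the highest air rat. The log2 fold change of Il1rap was 0.14 ± 0.06 (SE; adjusted p = 0.118 by edgeR, 95% interval 0.01 to 0.27), and without air replicate 6 it passed the test (adjusted p = 0.0456).

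**Figure D2:**
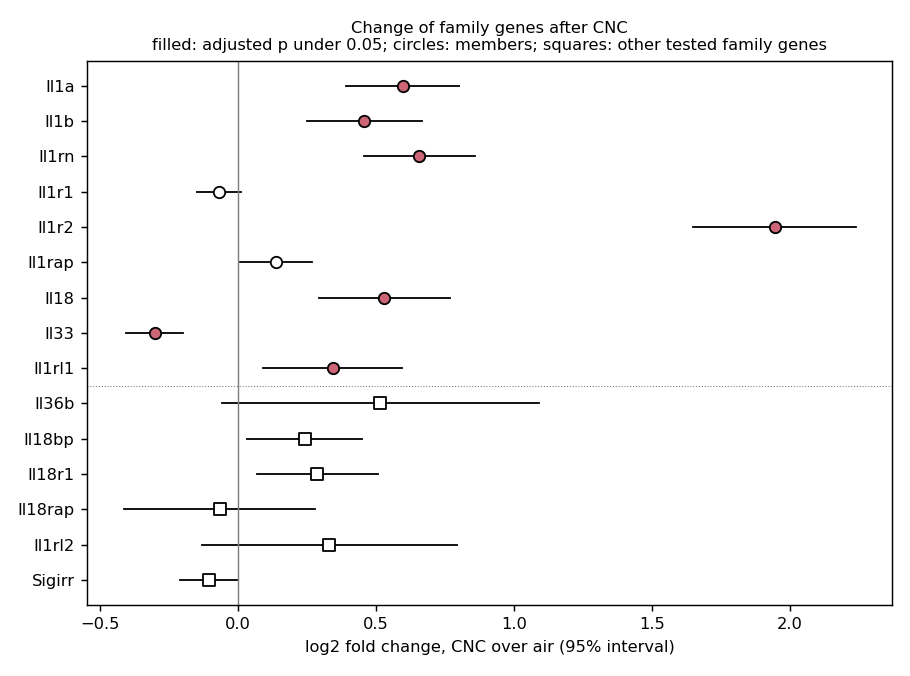
Log2 fold change of CNC over air (horizontal axis) with its 95% interval for the 9 genes (circles) and 6 other tested genes of the family (squares), filled where the adjusted p was under 0.05. Il1r2 stands at 1.94 and the other filled circles lie between -0.30 and 0.66.

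Ratios of counts within a library, which do not depend on the scaling between libraries, put agonist, antagonist and decoy side by side. The ratio of Il1rn to Il1b ran from 1.12 to 1.61 in air (median 1.43) and from 1.38 to 1.82 in CNC (median 1.59). The groups overlapped, and the difference on the log2 scale was 0.20 ± 0.10 (SE; 2-sided exact permutation test, p = 0.0671, adjusted p = 0.101 over 6 ratios). It passed without air replicate 3 (exact permutation test, adjusted p = 0.0422) and without CNC replicate 6 (adjusted p = 0.0390). The ratio of Il1rn to Il1a had a median of 2.88 in air and 2.93 in CNC, and differed by 0.06 ± 0.08 on the log2 scale (exact permutation test, adjusted p = 0.498). The ratio of Il1a to Il1b had a median of 0.516 in air and 0.521 in CNC (difference 0.14 ± 0.14, exact permutation test, adjusted p = 0.478).

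Every ratio with the decoy receptor was higher in CNC, with no overlap between groups. Il1r2 counts per Il1b count ran from 0.0706 to 0.0962 in air and from 0.191 to 0.278 in CNC, a 2.71-fold difference (log2 1.44 ± 0.11 SE). Per Il1a count the decoy ran from 0.144 to 0.229 in air and from 0.364 to 0.55 in CNC, a 2.47-fold difference. Against the signalling receptor the separation was widest, Il1r2 per Il1r1 count running from 0.0137 to 0.0193 in air and from 0.0523 to 0.0900 in CNC, a 3.92-fold difference. Each of these 3 ratios had an exact permutation p of 0.00216, the smallest that the 924 splits of the rats allow, and an adjusted p of 0.00433 over the 6 ratios. Thus the decoy rose more than either agonist and more than the signalling receptor, whereas a larger rise of the antagonist than of either agonist was not shown.

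**Figure D3:**
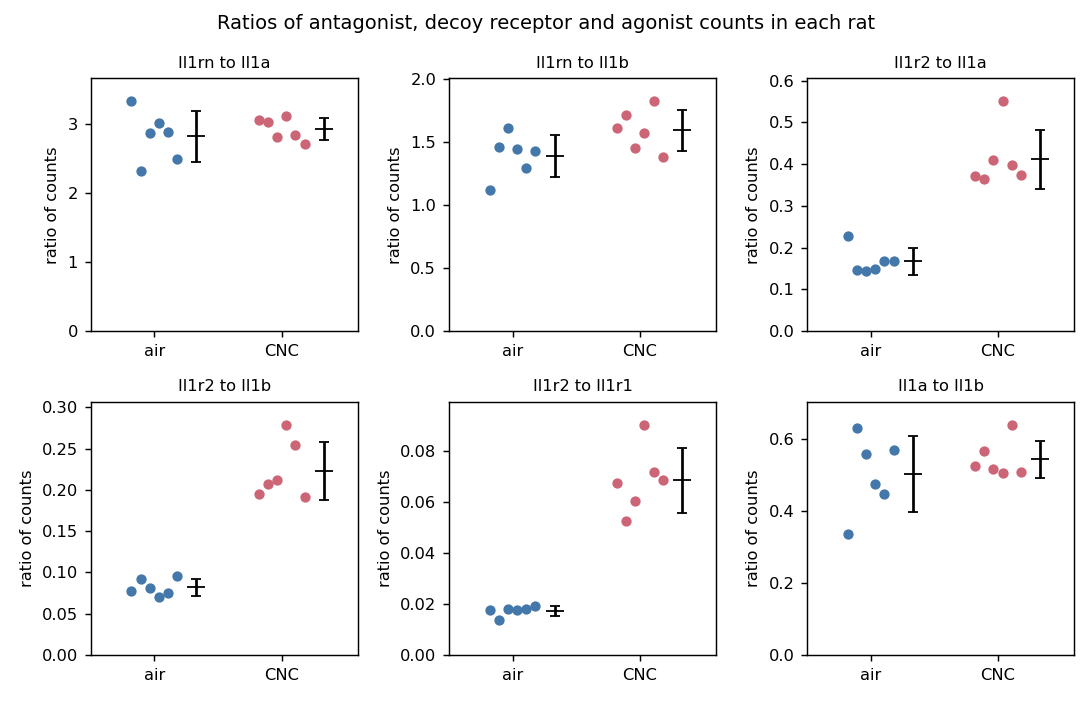
Ratio of counts of 2 genes in the same library (vertical axes from 0) for each rat, with mean and SD of 6 rats beside the points. The 3 panels with Il1r2 show groups that do not overlap, and the panels of Il1rn to Il1a, Il1rn to Il1b and Il1a to Il1b show groups that do.

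Il18 rose and Il33 fell. Il18, a cytokine made as a precursor by macrophages and epithelium and cleaved by caspase-1, ran from 17.9 to 29.7 CPM in air (median 24.0) and from 26.0 to 37.1 CPM in CNC (median 34.2). Of the 6 CNC rats 5 were above the highest air rat. The log2 fold change of Il18 was 0.53 ± 0.11 (SE; adjusted p = 0.00255 by edgeR), and the call ended with the clock gene covariate (0.44, adjusted p = 0.122). Il33 ran from 430.0 to 528 CPM in air (median 481) and from 358 to 414 CPM in CNC (median 389), all CNC rats lying below the lowest air rat. Its log2 fold change was -0.30 ± 0.05 (SE; adjusted p = 0.000303 by edgeR), and with the clock gene covariate it was -0.23 (adjusted p = 0.0621).

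Il1rl1, the receptor chain that binds IL-33, ran from 9.74 to 12.7 CPM in air (median 11.1) and from 10.9 to 19.1 CPM in CNC (median 13.2). Of the CNC rats 5 were above the highest air rat, replicate 1 the most, and CNC replicate 4 lay inside the air range. The log2 fold change of Il1rl1 was 0.34 ± 0.12 (SE; adjusted p = 0.0462 by edgeR). That call is the weakest of the 7: it ended without air replicate 1, 2, 3 or 6 or CNC replicate 1, 2 or 6 in turn (adjusted p from 0.0544 to 0.0982) and under 6 other settings. The soluble form of the receptor, which captures IL-33, and the membrane form share one row and were not separated.

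Markers of the cells that could carry these transcripts moved as follows, where over all genes tested 13.2% were higher and 11.4% lower in CNC. Of 15 endothelial markers 13 fell, among them Cdh5 (1.29-fold), and 0 rose. The endothelial sums were 6909 to 7903 CPM in air and 5745 to 6393 CPM in CNC, the same direction as Il33. Fibroblast markers, 5 of 10 lower and 0 higher, summed to between 4000 and 4963 CPM in air and between 3885 and 4263 CPM in CNC. Alveolar type 2 cell markers, 9 of 12 higher and 0 lower, summed to between 24994 and 32559 CPM in air and between 33180 and 40334 CPM in CNC. The alveolar type 2 list thus moved in the direction opposite to Il33. Alveolar macrophage markers, 7 of 13 higher and 2 lower, summed to between 1049 and 1191 CPM in air and between 1617 and 2166 CPM in CNC, beside the rises of Il1a, Il1b, Il1rn and Il18. Most of that difference came from Chi3l1 (mean 167 CPM in air and 599 CPM in CNC) and Plet1 (mean 180 and 350.1 CPM), while Car4 and Fabp4 fell and Mertk, Mrc1 and Siglec1 were among the 4 that did not pass the test. Likewise most of the alveolar type 2 difference came from the surfactant genes Sftpa1 (mean 6941 and 10705 CPM) and Sftpc (mean 10230 and 13413 CPM). The sums of monocyte and interstitial macrophage markers, 7 of 14 higher and 3 lower, overlapped (896 to 978 CPM in air and 863 to 1063 CPM in CNC). Most of that sum was Lyve1 (mean 367 CPM in air and 307 CPM in CNC) and Csf1r (mean 299 and 264 CPM), which both fell, as did Plac8. Among the 7 that rose were Cd68 (2.03-fold), Itgam (1.71-fold), C1qb (1.59-fold) and Cd14 (1.32-fold), so the overlap of the sums does not describe each marker.

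For Il1rl1, which mast cells and group 2 lymphoid cells carry, the marker lists gave little. Of 12 mast cell and basophil markers 8 were below the filter, among them Cpa3 with 54 counts over the air libraries and 36 over the CNC libraries. Of the 4 tested 2 fell and 1 rose, Hdc (1.47-fold), which is also among the 7 that rose in the neutrophil list. Kit and Gata2, both also expressed outside mast cells, made up 95.1 to 98.0% of the sum of the 4, which was 498 to 600.1 CPM in air and 429 to 494 CPM in CNC. Of 9 markers of group 2 lymphoid and regulatory T cells 1 fell, Gata3, and 0 rose, with sums of 138 to 158 CPM in air and 137 to 155 CPM in CNC. Among the marker lists, Marco (alveolar macrophage) and Nppb (heart muscle) were listed at 0 in all libraries and no other marker in the table was. The part of any of these cell types in the changes of the 9 genes was not tested.

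**Figure D4:**
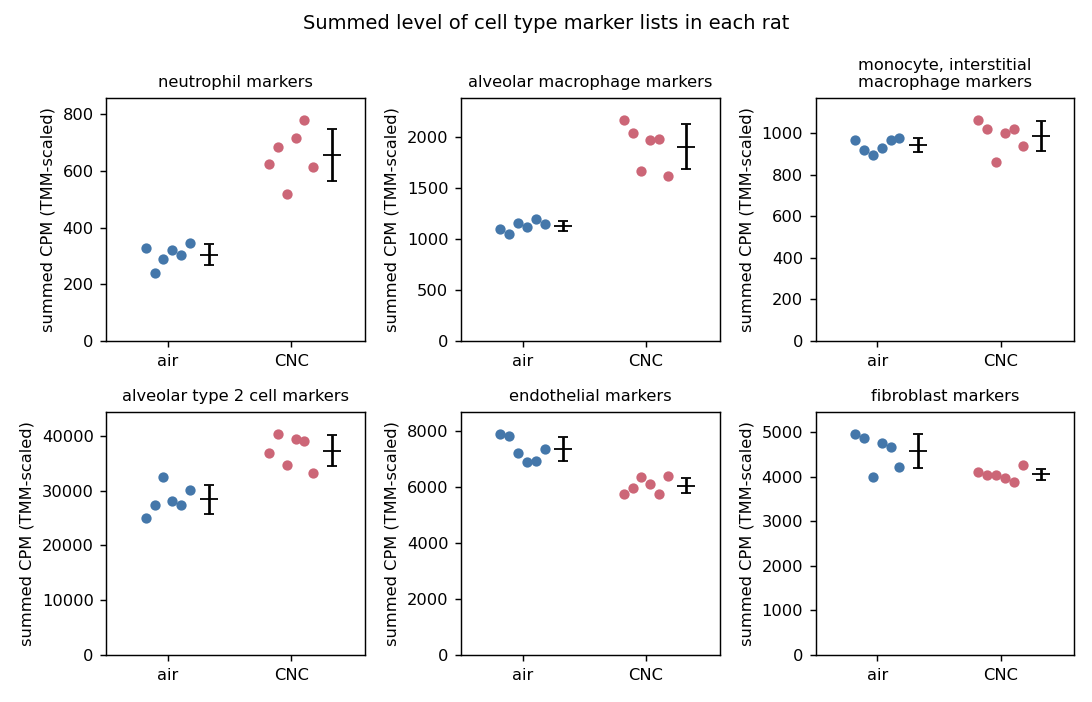
Summed level of 6 cell type marker lists in each rat (CPM, TMM-scaled, vertical axes from 0), with mean and SD of 6 rats beside the points. Neutrophil, alveolar macrophage and alveolar type 2 sums are higher in every CNC rat than in any air rat, endothelial sums are lower, and the other 2 lists overlap.

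None of the other tested genes of the family was called in the edgeR fit described above. Of 12 further ligands and receptors 6 passed the filter, and 0 of the 6 changed by edgeR (3 at an unadjusted p under 0.05), by the DESeq2 Wald test or by limma-voom, with a median log2 fold change of 0.26. Among them Il18bp, the soluble inhibitor of IL-18, averaged 17.9 CPM (SD 2.63) in the 6 air rats and 21.4 CPM (SD 2.62) in the 6 CNC rats (log2 fold change 0.24, adjusted p = 0.0864 by edgeR). Il18r1, the IL-18 binding chain, had a log2 fold change of 0.29 ± 0.10 (SE; adjusted p = 0.0534), and Sigirr, an inhibitory receptor of the family, one of -0.10 ± 0.05 (adjusted p = 0.139). Il18r1 passed the test without CNC replicate 2 (adjusted p = 0.0271 by edgeR), without CNC replicate 3 (0.0461) and among genes of at least 1 CPM (0.0473). Il18bp passed it without air replicate 4 (adjusted p = 0.0472) and Sigirr without CNC replicate 3 (0.0477). Il36a, Il36g, Il36rn, Il1f10 and Il1rapl1 were listed at 0 in all 12 libraries, which allows up to 3 counts, or 0.181 to 0.345 CPM in a single library, for counting error only. The table also lists Marco at 0 and Col1a2 at 1 count over all libraries, both well expressed in lung, so a symbol at 0 here is not read as absence.

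On chromosome 9, 6 receptor genes of the family stand next to each other in RefSeq's GRCr8 annotation, in the order Il1r2, Il1r1, Il1rl2, Il1rl1, Il18r1 and Il18rap, with 1 other protein-coding gene between the first and the second and 0 between the rest. Their log2 fold changes in that order were 1.94, -0.07, 0.33, 0.34, 0.29 and -0.07. Of these 6 neighbours Il1r2 and Il1rl1 passed the test.

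Of 19 tested signalling components downstream of the receptors 2 rose and 2 fell (median log2 fold change 0.04), a share close to the 24.6% called over all genes tested. Irak2, a kinase of the receptor complex, had a log2 fold change of 0.16 ± 0.05 (SE; adjusted p = 0.0328 by edgeR) and Myd88, the adaptor, one of 0.14 ± 0.05 (adjusted p = 0.0459). Peli1, a ubiquitin ligase that acts on Irak1, fell 1.16-fold and the NF-kappa B subunit Rela fell 1.08-fold. These calls were narrow: that of Myd88 was lost under 16 of 25 alternatives, including leaving out each air rat but replicates 4 and 5 and each CNC rat but replicate 3, and that of Irak2 under 9, including leaving out air replicate 1, 2, 3, 4 or 5 or CNC replicate 1, 2 or 5. The Rela call was lost under 6, including leaving out air replicate 1 or CNC replicate 1 or 5, and the Peli1 call with either clock gene covariate.

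Of genes for processing and release 4 of 13 rose and 1 fell (median 0.08), beside 13.2% higher and 11.4% lower over all genes tested. Those that rose were Nlrp3, the inflammasome sensor (1.3-fold, from a mean of 17.4 to one of 22.6 CPM), the protease gene Casp4 (1.22-fold), Ninj1, a protein of membrane rupture (1.24-fold), and the cathepsin Ctsb (1.35-fold). The first 3 of these calls ended with the clock gene covariate (adjusted p = 0.169, 0.404 and 0.463), and the Ctsb call held under all 25 alternatives. Casp1, which encodes the protease that matures IL-1 beta and IL-18, averaged 58.5 CPM (SD 3.65) in the 6 air rats and 57.1 CPM (SD 4.14) in the 6 CNC rats (adjusted p = 0.760 by edgeR), and the adaptor Pycard had an adjusted p of 0.126.

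Most tested genes known to respond to IL-1 rose: of 24, 15 rose and 0 fell, with a median log2 fold change of 0.47. Ccl7, among the 15, passed the filter on low counts only through the CNC libraries (67 counts over the air and 185 over the CNC libraries), so its rise depends on that filter. Over all genes tested 13.2% were higher and 11.4% lower. Sod2, a mitochondrial superoxide dismutase, rose 2.42-fold (from 145 ± 14.2 to 349.9 ± 28.9 CPM; SD, n = 6 per group). The neutrophil attractants Cxcl6 and Cxcl1 rose 5.86-fold and 2.02-fold, the monocyte attractant Ccl2 2.8-fold, the siderophore-binding protein Lcn2 5.49-fold, Tnfaip2 1.85-fold and the NF-kappa B inhibitor Nfkbia 1.26-fold. These genes also answer to other stimuli such as TNF and Toll-like receptor ligands. Among the uncalled genes of the list, Icam1 and Vcam1 had negative log2 fold changes (-0.11 and -0.04). The other uncalled genes were Ccl20 (0.02), Tnfaip3 (0.09), Nfkb2 (0.09), Il23a (0.11), Cebpd (0.25), Ptgs2 (0.28) and Steap4 (0.55). Il6, Csf3 and Ptges did not reach the filter on low counts. Their summed counts were 10, 2 and 22 in air, and 16, 2 and 28 in CNC. With the clock gene covariate 9 of the 24 were higher, Nfkbia not among them (adjusted p = 0.413). Over all genes that covariate likewise left 905 higher in place of 1981.

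Of 10 tested genes of the IL-33 and type 2 response 5 rose and 2 fell (median 1.32). Over all genes tested 13.2% were higher and 11.4% lower. Another 7 genes of the list were below the filter on low counts. Ccl22 and Ccl17, both among the 5 that rose, had 40 and 34 counts over the air libraries. They passed that filter only through the CNC libraries (213 and 126 counts), so their rises depend on it. Clca1 also passed it only through the CNC libraries and was not called (log2 fold change 1.81, adjusted p = 0.164 by edgeR). Its levels varied widely, from 0.0833 to 22.9 CPM in air and from 2.22 to 73.3 CPM in CNC. The list median depends on Clca1, Ccl22 and Ccl17, and so on the filter. Chia, a chitinase, rose 3.62-fold, Retnla 6.25-fold, arginase, Arg1, 1.77-fold and the chemokine Ccl22 5.09-fold, while the transcription factor Gata3 fell. The eosinophil attractant Ccl24, named after its value was seen, fell from a mean of 2.11 CPM to one of 1.00 CPM (log2 fold change -1.07, adjusted p = 0.00255 by edgeR). Ccl24 passed the low-count filter only through the air libraries (156 counts, 75 over the CNC libraries), so its fall depends on that filter. With either clock gene covariate 0 genes of this list were lower, the adjusted p of Ccl24 being 0.0725 and 0.127. The type 2 cytokines themselves were near the floor, with Il5 and Il9 at 0 counts, Il13 at 3 and 2 and Il4 at 1 and 2 counts over the air and the CNC libraries. For the IL-18 response 2 of 9 tested genes rose and 1 fell (median -0.0060), beside 24.6% called in either direction over all genes tested. Cd69, an early activation marker of lymphocytes, rose 1.37-fold and Cxcl10 1.69-fold, whereas the cytotoxic protein gene Prf1 fell 1.18-fold, and Ifng had 6 and 9 counts over the air and the CNC libraries. The Cxcl10 call was lost under 16 of 25 alternatives, including leaving out any air rat but replicate 3 or any CNC rat but replicates 1 and 2, the Cd69 call with the clock gene covariate (adjusted p = 0.260) and the Prf1 call without air replicates 4 and 5 together (0.0658). The Gata3 call was lost under 10, including leaving out air replicate 1, 3 or 5 or CNC replicate 1, 2, 4 or 5.

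**Figure D5:**
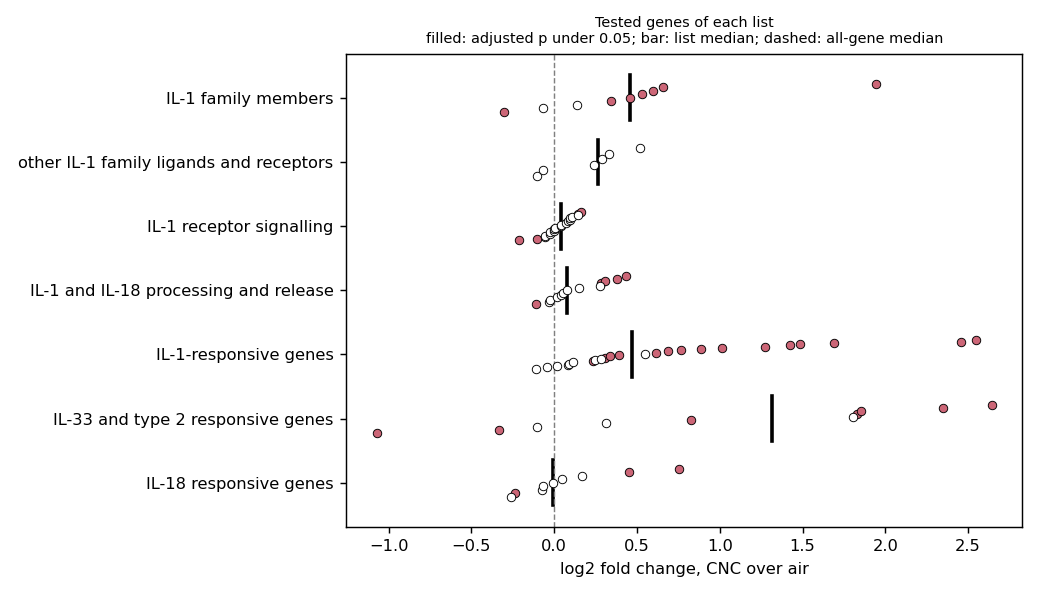
Log2 fold change of CNC over air (horizontal axis) for each tested gene of the family and of 6 further lists, filled where the adjusted p was under 0.05, with the list median as a bar and the median of all genes as a dashed line. The 19 signalling genes lie near the dashed line, while 15 of the 24 IL-1-responsive genes are filled and to its right.

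The genes whose level across the 12 rats was most like that of a member were taken from 12727 tested genes of at least 1 CPM, as a description only, since the rats share the group difference. For Il1b they were Tlr2 (Pearson r = 0.969 over 12 rats, and 0.916 with each group's mean removed), Siglec5 (0.949 and 0.869) and Lcp2 (0.944 and 0.848). For Il1r2 they were Ptx3 (0.988 and 0.651), Slc11a2 (0.98 and 0.427) and Rab7b (0.979 and 0.567). For Il33 they were Ablim3 (0.983 and 0.927), Rasgrp3 (0.975 and 0.889) and Lrch3 (0.970 and 0.900).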

How the data were processed

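The authors deposited a table of raw counts per gene symbol for 12 libraries. Polyadenylated RNA was sequenced with a strand-specific kit and 12 PCR cycles, per the labels' protocols. Tools listed in the submitters' processing notes, with no role stated, were HTSeq 0.11.2, HISAT2 2.1.0, SAMtools 1.8, Trimmomatic 0.35, bcl2fastq 2.19 and Cufflinks. Neither the annotation nor the strand setting of the counting is given in the sources used here, and reads of antisense or overlapping genes may be mixed. Counts of different rats are replicates by the labels. Over 30 pairs within groups, chi-square per degree of freedom was 2.69 to 8.36, where sampling noise gives 1, so no library repeats another. PCR reads are not independent molecules.

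Genes were filtered by filterByExpr (minimum count 10, minimum total 15), scaled by TMM and tested, CNC against air, with edgeR 4.0.16 (glmQLFit, glmQLFTest) in R 4.3.3 and a threshold of 0.05. The SE is the log2 fold change divided by the square root of F. Log2 CPM used a prior count of 2, and ratios added 0.5 to each count. The procedure was tested on simulated data with changed genes of known fold. It recovered 50% of those changed 1.25-fold, 70% at 1.5-fold, 87.5% at 2-fold and 100% at 4-fold, and 7 of 159 calls were false. Small changes can therefore go uncalled. Far more genes, 3691, were called in the data than were changed in the simulation, so its recovery shares need not hold for the data. Members, 16 gene lists and tests were chosen with earlier results of these data known. Named were all 9 members, up to 4 called genes of smallest adjusted p per list and a short panel (Myd88, Casp1, Nlrp3, Pycard, Il18bp, Il18r1, Sigirr, Cxcl1, Ccl2, Lcn2, Nfkbia, S100a8 and S100a9), of which the genes that bear on the members are printed. Any other list gene in the text was named after its values were seen. Alternatives were other scalings and filters, the DESeq2 1.42.0 Wald test, limma 3.58.1 (voom), covariates and left-out rats. The replicate numbers only name rats. All 9 members matched RefSeq's GRCr8 gene table by symbol, and 8 had a promoter window there. Figures used Python 3.11.15 and matplotlib 3.10.9.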

Additional observations from a re-analysis of the deposited data

Results flagged for a closer look

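Within a group of 6 rats, a single rat lay far from the others in 12 of 184 sets of values examined, where chance gives about 5%. Among the 9 genes and their ratios, Il1b was low in air replicate 2 (19.2 CPM, the other air rats 25.9 to 29.7). The ratio of Il1r2 to Il1a was high in air replicate 1 (0.229, the others 0.144 to 0.169) and in CNC replicate 4 (0.55, the others 0.364 to 0.411). The ratio of Il1r2 to Il1r1 was low in air replicate 2 (0.0137, the others 0.0175 to 0.0193).

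Air replicate 4 stood apart for 5 values. The clock genes Dbp (34.2 CPM, the others 9.29 to 13.9) and Arntl (34.4 CPM, the others 50.8 to 56.6) lay toward the CNC levels there. Tnfaip2 (52.6 CPM, the others 32.4 to 37.4), Prf1 (104.7 CPM, the others 85.8 to 88.5) and the summed IL-18 responsive genes (217 CPM, the others 176 to 189.8) were high. Irak2 was high in air replicate 6 (55.9 CPM, the others at most 50.6), Nlrp3 was low in CNC replicate 3 (19.1 CPM, the others 22.6 to 24.5), and the summed group 2 lymphoid and regulatory T cell markers were high in CNC replicate 6 (155 CPM, the others 137 to 143).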

How the results depend on the processing

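Over 25 alternatives, 203 of 225 values of the 9 genes kept their direction and their side of the threshold and 0 changed direction. For the 6 ratios it was 88 of 90, with 0 changes of direction. The clock gene covariate, which differed between the groups, gave 3 members higher and 0 lower (Il1a, Il1rn and Il1r2 remained), and its version with signs reversed for 4 genes, chosen after seeing the data, gave 1 and 0 (Il1r2). Log2 fold changes with the 2 versions were 0.23 and 0.17 for Il1b, 0.44 and 0.49 for Il18, -0.23 and -0.17 for Il33 and 0.51 and 0.48 for Il1rl1, none of them called, and with the second they were 0.55 for Il1a and 0.48 for Il1rn. Over all genes 905 were higher and 661 lower with the first and 810 and 541 with the second, beside 1981 and 1710 without. The SE of Il1b rose from 0.10 to 0.13 and 0.15. With library size alone 1683 genes were higher and 2151 lower (43.9% of calls higher, beside 53.7%), and with upper quartile scaling 47.8%, while the median log2 fold change over all genes moved to no less than -0.03.

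The Il1rl1 call also ended with library size alone (0.32), limma-voom (0.32), no count filter (0.35) and upper quartile scaling (0.33). Leaving out each rat in turn gave 5 to 6 members higher and 1 lower. It gave Il1rl1 0.24 to 0.41, Il1rap 0.11 to 0.17 and a log2 difference in the ratio of Il1rn to Il1b of 0.14 to 0.24.

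Of the pathway lists, IL-1 receptor signalling had 1 gene higher in place of 2 with either clock version, library size alone, no count filter or air replicates 4 and 5 left out, and 0 lower with either clock version and 1 lower with no count filter. Processing and release had 1 higher and 0 lower with either clock version. IL-1-responsive genes had 9 and 8 higher with the clock versions, and 1 lower with library size alone and without air replicates 4 and 5. IL-18 responsive genes had 0 higher with either clock version, 1 higher with no count filter and without air replicates 4 and 5, 2 lower with library size alone and with the first clock version, and 0 lower without air replicates 4 and 5. IL-33 and type 2 genes had 0 lower with either clock version and 1 lower without air replicates 4 and 5. Among 60 other named genes, 1409 of 1500 values kept their result and 3 turned: Il18bp (-0.0180) and Pycard (-0.0320) with the second clock version and Casp1 (0.0067) without air replicates 4 and 5, none called in either direction. The cause of these differences was not tested. No paired analysis was possible because the labels give the groups no shared numbers. Il1r2 had the fewest counts, 21 in its lowest air libraries.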
